A study of Mus musculus with 7 samples.

Results

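The genes described here encode the SPARC-related matrix proteins Sparc, Sparcl1, Smoc1, Smoc2 and Fstl1. They were taken by name, as 5 of the 54735 gene symbols in a table of raw counts from sorted mouse cardiac fibroblasts, and all 5 passed the filter on low counts that left 17636 genes for testing. The study traced fibroblast populations of the heart after birth with a tamoxifen-inducible recombinase, MerCreMer, which switched on green fluorescent protein from the R26eGFP reporter, and fluorescent cells were sorted for RNA sequencing. The 7 libraries fell into 3 groups. The group called P7 Postn here came from PostnMCM;R26eGFP mice at day 7 after birth (n = 2), where the periostin gene drives the recombinase. P7 Tcf21 came from Tcf21MCM;R26eGFP mice at day 7 (n = 2), where the driver is the gene of a transcription factor of resident fibroblasts. P30 Tcf21 came from the same Tcf21 line at day 30 (n = 3). All groups carried the reporter and pooled males with females. The label marks cells in which the driver gene was on when tamoxifen was given, so it does not report the driver's level at the time of the sort. The labels do not say when tamoxifen was given or whether libraries came from separate animals, so p-values measure only the spread between these libraries, part of which may be technical.

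Proteins of this family are secreted and carry a follistatin-like module and a conserved extracellular domain, which binds calcium in Sparc. They act on how cells meet the matrix and on growth factors, rather than as a structural scaffold. Sparc (osteonectin) binds collagens and takes part in the assembly of collagen fibrils, and in the heart it is known from fibroblasts and from scar formation. Sparcl1 (hevin) is its closest relative and is also known as a glial protein that promotes synapses. Smoc1 and Smoc2 bind matrix and cell-surface proteoglycans and modulate BMP signalling. Fstl1 is a secreted glycoprotein of mesenchymal cells and the epicardium that has been linked to cardiac repair.

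The libraries held 15207835 to 18519528 counts. All 6 fibroblast markers on the list (Col1a1, Col1a2, Pdgfra, Tcf21, Dcn and Lum) were detected in each library, with summed levels of 15330 to 25430 CPM (TMM-normalised counts scaled to library size). All 8 endothelial markers were detected too. They summed to 2652 CPM in P30 Tcf21 replicate 1 and 1196 CPM in P7 Postn replicate 1, against 801 to 944 CPM in the other libraries. Tek alone gave 351 to 540 CPM of these sums and varied little. Its SD in P30 Tcf21 was 5.59% of the mean, against 96.7% to 118% for the other endothelial markers. The sums therefore understate how far those markers differed, as with Kdr at 128 to 887 CPM in P30 Tcf21. Replicate 1 of P30 Tcf21 and of P7 Postn, called endothelial-rich below, were also high in other lists. Smooth muscle markers summed to 706 in P30 Tcf21 replicate 1 against 192 and 219 CPM, and in P7 Postn to 639 against 475 CPM. Cardiomyocyte markers summed to 614 against 339 and 348 CPM in P30 Tcf21, and to 857 against 406 CPM in P7 Postn. The fibroblast sum of each was the lowest of its group, as were the macrophage and Schwann cell sums of P7 Postn replicate 1. Replicates differed by more than counting noise in every group. The P7 Tcf21 libraries lay closest together, with a chi-squared per degree of freedom of 3.55, against 10.8 to 42.1 in the other groups.

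In GRCm38 all 5 are protein coding. Sparc lies on chromosome 11 (55394500 to 55423183, minus strand), Sparcl1 on chromosome 5 (104079111 to 104113733, minus strand), Smoc1 on chromosome 12 (81026808 to 81186414, plus strand), Smoc2 on chromosome 17 (14279506 to 14404790, plus strand) and Fstl1 on chromosome 16 (37776873 to 37836514, plus strand). None of the 5 shared a stretch of 50 bases with another member in annotated transcripts, so a read of that length would come from a single member. Of the stretches of 50 bases in Fstl1 transcripts 5.35% also occurred in transcripts of other genes, against 0.601% for Sparc and 0% for Sparcl1, Smoc1 and Smoc2. Antisense genes overlap the spans of Sparcl1 (Gm26703) and Smoc2 (4930474M22Rik), and the microRNA gene Mir3067 overlaps that of Smoc1 on the same strand. Each shares 0 exon bases with the member.

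Start-site windows from RefSeq (GRCm38.p6, 250 bases before to 50 after the start) matched 2 of the 5 genes. These 2 are shown, of which Fstl1 fell with age and Sparc did not pass the test. The Sparc window is chr11:55420031-55420330 on the minus strand and the Fstl1 window is chr16:37776805-37777104 on the plus strand, each printed 5′ to 3′ along its gene. Its RefSeq start places the Sparc window inside the wider GENCODE span given above. Capitals mark matches on either strand to any of 6 motifs. These were GGGCGG for the GC box, TATAAA for the TATA box, CCAAT for the box of that name, TGANTCA for AP-1, CATTCC for TEAD factors and CAGAC for the SMAD box, none of which overlap here.
Sparc: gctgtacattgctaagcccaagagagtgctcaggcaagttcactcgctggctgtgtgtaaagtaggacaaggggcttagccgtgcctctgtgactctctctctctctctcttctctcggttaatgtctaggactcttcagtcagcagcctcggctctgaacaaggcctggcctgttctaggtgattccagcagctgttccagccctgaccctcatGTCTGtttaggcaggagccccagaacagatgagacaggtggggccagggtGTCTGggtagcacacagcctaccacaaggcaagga
Fstl1: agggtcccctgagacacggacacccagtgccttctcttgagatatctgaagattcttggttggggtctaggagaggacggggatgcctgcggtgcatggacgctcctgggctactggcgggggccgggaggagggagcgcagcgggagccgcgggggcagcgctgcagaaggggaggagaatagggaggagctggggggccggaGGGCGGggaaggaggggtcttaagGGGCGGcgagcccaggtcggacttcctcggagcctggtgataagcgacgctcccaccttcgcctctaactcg
The Sparc window holds 2 SMAD box matches, both on the opposite strand, starting at positions -35 and 16 from the start site, and none of the other motifs. The Fstl1 window holds 2 GC boxes, at positions -46 and -22, and none of the others. Of the 32851 windows of this length in the table, 49.6% hold a SMAD box match and 35.7% a GC box. The G and C content is 66.7% in the Fstl1 window and 55.3% in that of Sparc, against a median of 52.7%. These matches are descriptions of the letters and not binding sites.

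Levels were first compared between the genes, per kilobase (kb) of merged exon length. Sparc was the most abundant member in all 7 libraries, at 814 to 1032 CPM per kb, which gave it rank 6 or 7 among all genes. Fstl1 came next at day 7, at 532 and 618 CPM per kb in P7 Postn and 622 and 642 CPM per kb in P7 Tcf21. Sparcl1 followed at 289 and 323 CPM per kb in P7 Postn and 298 and 302 CPM per kb in P7 Tcf21. The day 7 libraries of Fstl1 and Sparcl1 did not overlap. Smoc2 was below both, at 103 and 146 CPM per kb in P7 Postn and 164 and 165 CPM per kb in P7 Tcf21, and Smoc1 was rare, at 0.586 to 1.98 CPM per kb over the 4 day 7 libraries.

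At day 30 this order was less clear. Sparcl1, at 502, 510 and 447 CPM per kb, overlapped Fstl1, at 396, 483 and 452 CPM per kb, and Sparcl1 was the higher of the pair in replicates 1 and 2. Smoc2 stood at 248, 336 and 294 CPM per kb, below every Fstl1 and Sparcl1 library. With the longest transcript as the length, Smoc2 reached 434, 587 and 514 CPM per kb and overlapped Sparcl1, at 534, 543 and 476 CPM per kb. The order of Fstl1, Sparcl1 and Smoc2 at day 30 therefore rested on the length used. Smoc1 remained the lowest at 3.34 to 5.94 CPM per kb.

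As a share of the 5-gene sum per length, Sparc made up 46.4% ± 0.590 (SD, n = 2) in P7 Postn, 48.4% ± 0.422 (SD, n = 2) in P7 Tcf21 and 41.6% ± 0.377 (SD, n = 3) in P30 Tcf21. Fstl1 held 30.6% ± 0.0646, 29.7% ± 0.421 and 21.1% ± 1.11 in the same order. The share of Sparcl1 was 16.3% ± 0.398, 14.1% ± 0.0145 and 23.2% ± 1.88, and that of Smoc2 was 6.58% ± 0.969, 7.73% ± 0.0189 and 13.9% ± 1.17. The day 30 libraries thus carried relatively more Sparcl1 and Smoc2 and less Fstl1 than any day 7 library. The sum itself was 1738 and 2013 CPM per kb in P7 Postn, 2118 and 2143 in P7 Tcf21 and 1978 to 2289 in P30 Tcf21. Both P7 Postn libraries thus lay below both P7 Tcf21 libraries. The ratio of Sparc to Sparcl1 per length was 2.82 and 2.86 in P7 Postn, 3.46 and 3.41 in P7 Tcf21, and 1.65, 1.88 and 1.87 in P30 Tcf21. These shares and ratios were not tested, since they describe one sum in each library.

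**Figure D1:**
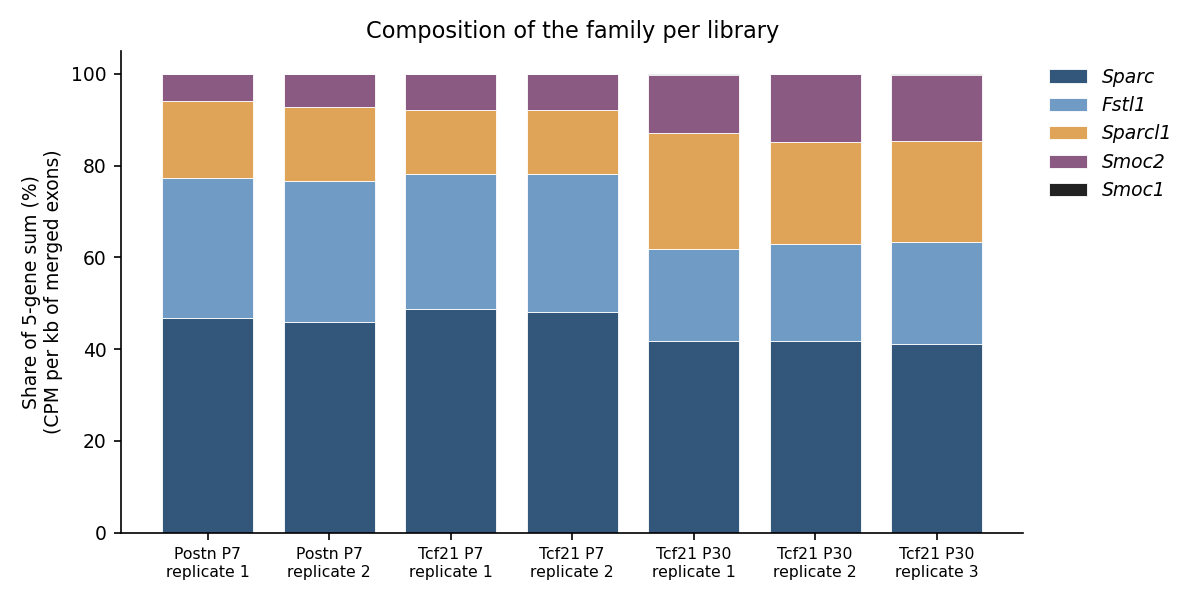
Stacked bars give the share of each gene in the 5-gene sum (percent of CPM per kb of merged exons, y axis) in each of the 7 libraries (x axis). Sparcl1 and Smoc2 take a larger share in the 3 day 30 libraries, and Smoc1 is too rare to see.

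The comparison of P30 Tcf21 with P7 Tcf21 set separate libraries of the same Tcf21 line at 2 ages against each other. The time of tamoxifen is not given, so age and the time of labelling cannot be told apart. Sparcl1 and Smoc2 were higher at day 30, Fstl1 was lower, and Sparc and Smoc1 did not pass the test (edgeR quasi-likelihood test with Benjamini-Hochberg adjustment over all genes, threshold 0.05). So 3 of 5 members were called, where 31.8% of all genes tested were called. In all 2 members were higher and 1 lower, against 16.7% and 15% of all genes. The median log2 change of the 5 members was 0.70, against 0.03 over all genes tested. For all 5 members the libraries of the groups did not overlap, which held for 61.8% of all genes. In these bulk libraries a change in the make-up of the sorted cells and a change in RNA per cell cannot be told apart.

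Sparc, the collagen-binding founder of the family, stood at 3910 and 3906 CPM in P7 Tcf21 and at 3132, 3627 and 3170 CPM in P30 Tcf21. All day 30 libraries were below those of day 7, but the difference of -0.24 ± 0.12 (SE, log2 scale) was not called (adjusted p = 0.16), with a 95% interval from -0.52 to 0.04. Sparcl1 stood at 876 and 887 CPM in P7 Tcf21 and at 1474, 1498 and 1312 CPM in P30 Tcf21. Every day 30 library was above both day 7 libraries, and the increase of 0.70 ± 0.11 on the log2 scale, or 1.62-fold, was called (edgeR adjusted p = 0.0024). Sparcl1 is also known from endothelial cells and pericytes. The endothelial markers summed to 944 and 827 CPM in P7 Tcf21 and to 2652, 801 and 891 CPM in P30 Tcf21. Without both endothelial-rich libraries the change was 0.68. The 7 pericyte markers, all detected, summed to 1105 and 1058 CPM in P7 Tcf21 and to 1500, 830 and 873 CPM in P30 Tcf21. Pdgfrb alone gave 564 to 603 CPM of the P30 Tcf21 sums, with an SD of 3.28% of the mean. For the other pericyte markers this was 45.9% to 109%. The part of either cell type in the Sparcl1 level was not tested.

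Smoc2, the abundant SMOC gene of these cells, stood at 1140 and 1149 CPM in P7 Tcf21 and at 1722, 2332 and 2040 CPM in P30 Tcf21. The groups did not overlap, and the increase was 0.83 ± 0.18 on the log2 scale, or 1.78-fold (edgeR adjusted p = 0.011). The call needed both P7 Tcf21 libraries. It was lost without replicate 1 (adjusted p = 0.095) or replicate 2 (adjusted p = 0.091) and with the pair summed into 1 sample (adjusted p = 0.095), while the change without either library was 0.83 and 0.84. The lowest day 30 value of Smoc2 came from replicate 1, the endothelial-rich library.

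Smoc1 was measured from 109 and 120 counts in P7 Tcf21 and from 329, 184 and 265 counts in P30 Tcf21. In CPM these were 6.20 and 6.93 against 20.8, 11.7 and 14.6. The day 30 libraries were all higher, and the highest was the endothelial-rich replicate 1. The difference of 1.25 ± 0.42 on the log2 scale missed the threshold (edgeR adjusted p = 0.056). DESeq2 and limma-voom both called it, as did 8 of the 17 alternatives in all, one of which left out both endothelial-rich libraries (log2 change 1.00, adjusted p = 0.0017). The part of endothelial or other cell types in the level of replicate 1 was not tested.

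Fstl1 stood at 3058 and 3155 CPM in P7 Tcf21 and at 1944, 2371 and 2220 CPM in P30 Tcf21. It was the only member called lower with age, and fell by 0.51 ± 0.13 on the log2 scale, or 1.43-fold lower (edgeR adjusted p = 0.017). Leaving out P7 Tcf21 replicate 1 (adjusted p = 0.13), P7 Tcf21 replicate 2 (adjusted p = 0.17) or P30 Tcf21 replicate 3 (adjusted p = 0.072) ended the call, as did summing the P7 Tcf21 libraries (adjusted p = 0.15). The 6 fibroblast markers summed to 15330, 18710 and 17930 CPM in P30 Tcf21 against 25430 and 25220 CPM in P7 Tcf21, but did not move one way. Of the 6, the collagen genes Col1a1 and Col1a2 fell and Pdgfra rose (0.50 ± 0.13, edgeR adjusted p = 0.025). Dcn (0.40 ± 0.14, edgeR adjusted p = 0.055), Lum (0.03 ± 0.13) and Tcf21 (-0.05 ± 0.16) were not called. The 4 epicardial markers (Wt1, Upk3b, Msln and Krt19) summed to 16.0, 1.97 and 1.92 CPM against 20.7 and 15.9 CPM, with Msln at 0 in replicates 2 and 3 of day 30 and Upk3b at 0 in replicate 3. The part of epicardial cells in the Fstl1 level was not tested. The ratio of Fstl1 to Sparc per length was 0.603 and 0.623 in P7 Tcf21 and 0.479, 0.504 and 0.540 in P30 Tcf21.

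**Figure D2:**
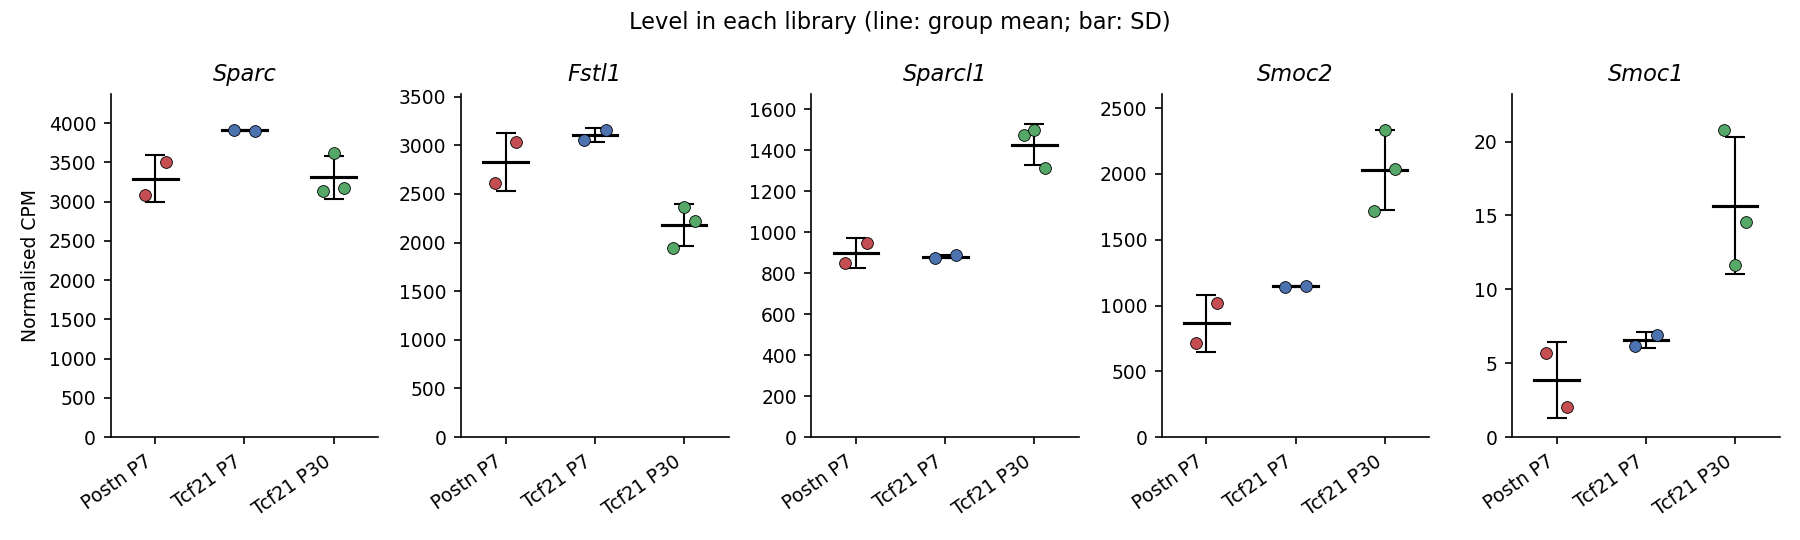
Points give the normalised CPM (y axis, from 0) of each gene in each library by group (x axis), with lines at group means and bars for the SD (n = 2, 2 and 3). Sparcl1 and Smoc2 are highest in the 3 P30 Tcf21 libraries, and Fstl1 is lowest there.

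The comparison of P7 Postn with P7 Tcf21 set the periostin-traced cells against the Tcf21-traced cells of the same age. No member was called, where 12% of all genes were (6.52% higher and 5.49% lower in P7 Postn). By edgeR 0 members had an unadjusted p under 0.05, and DESeq2 and limma-voom also called 0. The median log2 difference of the members was -0.25, against 0.00 over all genes. For Sparc, Smoc1, Smoc2 and Fstl1 both P7 Postn libraries lay below both P7 Tcf21 libraries, and such non-overlap, in either direction, held for 64% of all genes.

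Sparc stood at 3081 and 3504 CPM in P7 Postn, below the 3910 and 3906 CPM of P7 Tcf21, with a difference of -0.25 ± 0.13 and a 95% interval from -0.55 to 0.06. For Sparcl1 the P7 Postn libraries, at 849 and 950 CPM, lay on either side of those of P7 Tcf21. Its difference was 0.03 ± 0.12 (interval -0.24 to 0.29), so a difference of the size seen between the ages lay outside the interval. The pericyte markers summed to 2190 and 1590 CPM in P7 Postn against 1105 and 1058 CPM in P7 Tcf21. Their part in the Sparcl1 levels was not tested. Fstl1 stood at 2614 and 3035 CPM in P7 Postn, a difference of -0.14 ± 0.14 (interval -0.46 to 0.18).

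The SMOC genes were the most variable members between the P7 Postn libraries. Smoc2 stood at 712 and 1017 CPM there, with a difference from P7 Tcf21 of -0.41 ± 0.20 and an interval from -0.85 to 0.04 (edgeR adjusted p = 0.20). It was called when no filter on low counts was used (adjusted p = 0.044). Smoc1 rested on 107 and 32 counts in P7 Postn, or 5.66 and 2.05 CPM, with a difference of -0.75 ± 0.46 and an interval from -1.83 to 0.33. The higher value belonged to replicate 1, which held 1196 CPM of endothelial and 53.3 CPM of epicardial markers, against 809 and 6.41 CPM in replicate 2, where Upk3b and Msln were at 0. Without both endothelial-rich libraries, which left 1 P7 Postn library whose spread is assumed to be like that of the other groups, Smoc1 was called lower in P7 Postn (log2 change -1.67, adjusted p = 0.0032). The part of these cell types in the Smoc1 levels was not tested.

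The comparison of P7 Postn with P30 Tcf21 differs in both lineage and age, which cannot be told apart there. It shares libraries with each of the other comparisons. Smoc1, Smoc2 and Sparcl1 were lower in P7 Postn, so 3 of 5 members were called, where 24.2% of all genes were called (11.7% higher and 12.5% lower). The libraries did not overlap for 4 of the 5, as for 50.6% of all genes. The median log2 difference of the members was -0.67, against -0.01 over all genes.

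Smoc1 differed most, by -2.01 ± 0.44 on the log2 scale, or 4.02-fold lower (edgeR adjusted p = 0.015), with a 95% interval from -3.03 to -0.98. Smoc2 differed by -1.23 ± 0.19, or 2.35-fold lower (edgeR adjusted p = 0.0022). Sparcl1 differed by -0.67 ± 0.11, or 1.59-fold lower (edgeR adjusted p = 0.0032). The calls of all 3 were kept in each of the 17 alternatives. The Smoc1 difference was -2.93 without P7 Postn replicate 1, -1.47 without P7 Postn replicate 2 and -2.68 without both endothelial-rich libraries. The pericyte markers summed to 2190 and 1590 CPM in P7 Postn against 1500, 830 and 873 CPM in P30 Tcf21. Their part in the Sparcl1 difference was not tested.

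The Sparc libraries of these groups overlapped, with a difference of -0.01 ± 0.12 and an interval from -0.28 to 0.27. Fstl1 was higher in both P7 Postn libraries than in every P30 Tcf21 library. Its difference of 0.37 ± 0.13 was not called by edgeR (adjusted p = 0.065), although DESeq2 and limma-voom called it.

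**Figure D3:**
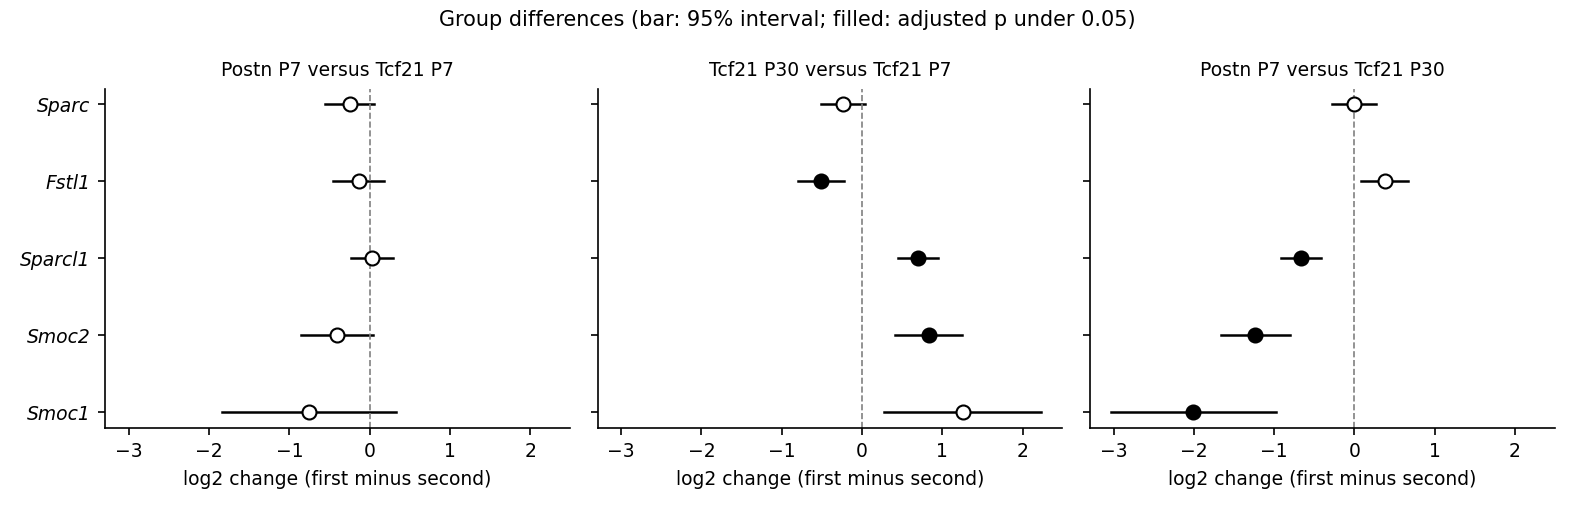
Each point is a log2 change (x axis, first group minus second) of a member (y axis) in 1 of 3 comparisons, with its 95% interval, and filled points passed the adjusted p of 0.05. The members show 0 calls between the day 7 groups and 3 in each of the other panels.

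Across the 7 libraries, pairs of members were described by Pearson's r of log2 CPM, with no test, since the libraries share groups and a common scaling. Sparcl1 and Smoc2 had the highest r (0.91), followed by Sparcl1 and Smoc1 (0.75), Sparc and Fstl1 (0.73) and Smoc1 and Smoc2 (0.71). Fstl1 ran against Sparcl1 (r = -0.85) and Smoc1 (r = -0.82). Sparc and Smoc2 had an r of -0.02.

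Likeness of pattern was measured by the same r against 9988 other genes with a mean of at least 10 CPM (9989 for Smoc1). Picking the highest of so many r over 7 libraries favours values near 1, so they describe the pattern and were not tested. For Smoc2 the nearest were Il17ra (r = 0.999), Rab7 (0.998) and Add3 (0.998). Il17ra encodes an interleukin receptor and stood at 23.1, 28.7 and 46.5 CPM for P7 Postn, P7 Tcf21 and P30 Tcf21. For Sparcl1 they were Idnk (0.998), Gas6 (0.996) and Csgalnact1 (0.995). Gas6, which encodes a ligand of TAM receptors, stood at 248, 248 and 504 CPM. For Fstl1 they were Morc4 (0.997), Thbs3 (0.993) and Tbc1d7 (0.993), of which Thbs3, a thrombospondin gene, stood at 275, 340 and 186 CPM. For Sparc they were Mlf2 (0.990), Arf4 (0.988) and Zfp777 (0.982). For Smoc1 they were Zc3hav1 (0.994), Vsir (0.984) and Ncoa4 (0.984), a likeness that rests on a low level of Smoc1.

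The related genes of the pathway were taken from 5 lists with 52 genes. Their counts are given beside the share of all genes called, which was 31.8% between the ages (16.7% higher, 15% lower), 12% between the day 7 groups and 24.2% between P7 Postn and P30 Tcf21. The members and lists were chosen with earlier results of these data known, so counts beside these shares are descriptions and not tests. Among 7 other genes with SPARC or follistatin domains, 3 passed the filter (Spock2, Fst and Fstl3). Between the ages 2 of these rose and 0 fell, with a median log2 change of 2.11. Spock2, a testican proteoglycan gene with a SPARC-type calcium-binding domain, rose from 2.30 ± 1.08 CPM (SD, n = 2) in P7 Tcf21 to 36.9 ± 10.8 CPM (SD, n = 3) in P30 Tcf21 (16.0-fold, with an SE of 0.44 on the log2 scale, edgeR adjusted p = 0.00086). Fst, which encodes the activin antagonist follistatin, rose from 3.18 ± 0.00634 to 13.7 ± 3.37 CPM (2.11 ± 0.32). In P7 Postn Spock2 was at 1.53 ± 0.739 CPM, lower than in P30 Tcf21 (-4.61 ± 0.46), and Fst was lower too (-1.43 ± 0.31), a call lost without P7 Postn replicate 1 (adjusted p = 0.069). Between the day 7 groups 0 of the 3 were called, by edgeR, DESeq2 or limma-voom, and 0 had an unadjusted p under 0.05 by edgeR. The most expressed of them, Fstl3, stood at 49.8 ± 2.18 and 49.9 ± 1.63 CPM there.

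Of the 7 collagen genes whose products Sparc binds, 6 fell between day 7 and day 30 and 0 rose, with a median log2 change of -0.84. Col1a1 fell from 10540 ± 241 CPM in P7 Tcf21 to 5283 ± 649 CPM in P30 Tcf21 (1.99-fold lower, with an SE of 0.15 on the log2 scale, edgeR adjusted p = 0.0023). Col3a1 (-0.95 ± 0.15) and Col1a2 (-0.94 ± 0.13) fell by similar amounts. Each of these 3 kept its call in all alternatives. The Sparc difference in the same comparison was -0.24, with an interval from -0.52 to 0.04, and the difference between Sparc and the collagens was not tested. Col1a1 (0.76 ± 0.15), Col3a1 (0.59 ± 0.15) and Col1a2 (0.59 ± 0.13) were the 3 collagens higher in P7 Postn than in P30 Tcf21, and 0 were lower. Without P7 Postn replicate 2 these 3 calls were lost, with adjusted p of 0.064, 0.13 and 0.10, and those of Col3a1 and Col1a2 were also lost without P30 Tcf21 replicate 3 (0.09 and 0.066) or either P7 Tcf21 library (0.085 and 0.062), and with only these groups in the fit (0.078 and 0.056). Between the day 7 groups 0 of 7 were called by edgeR or limma-voom and 1 by DESeq2, with 2 at an unadjusted p under 0.05. The most expressed, Col3a1, differed by -0.36 ± 0.16.

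Of 14 genes for receptors and binding partners of the family, 2 rose and 4 fell between the ages, where 31.8% of all genes were called. Tgm2, a transglutaminase that cross-links matrix proteins, rose from 65.9 ± 3.62 CPM to 286 ± 39.2 CPM (2.12 ± 0.20, edgeR adjusted p = 0.00035). Tnc, which encodes the matricellular protein tenascin-C, fell from 380 ± 1.29 to 31.5 ± 10.9 CPM (-3.59 ± 0.27). Itgb3, an integrin subunit, fell (-1.86 ± 0.39), a call lost without P7 Tcf21 replicate 1 or 2 (adjusted p = 0.084 and 0.093). In P7 Postn against P30 Tcf21, 2 of 14 were higher and 4 lower, among them Tnc (3.81 ± 0.28), Tgm2 (-2.20 ± 0.20) and Cd14 (-1.08 ± 0.23), a monocyte co-receptor. Cd14 lost that call without P7 Postn replicate 1 (adjusted p = 0.067). Between the day 7 groups, where 12% of all genes were called, 0 of the 14 were higher and 2 lower, Cd14 (-1.33 ± 0.24) and Thbs1 (-0.51 ± 0.13), a thrombospondin. Without P7 Tcf21 replicate 1 or 2 neither was called, with adjusted p of 0.11 in both cases for Cd14 and 0.29 and 0.23 for Thbs1, and without P7 Postn replicate 1 they had 0.057 and 0.15. Thbs1 also lost its call without P7 Postn replicate 2 (0.093) or P30 Tcf21 replicate 3 (0.11), with the other 3 scalings (0.055 to 0.081) and with the replicate block (0.056). The 6 macrophage markers, all detected, summed to 189 and 233 CPM in P7 Postn, 723 and 728 CPM in P7 Tcf21 and 187 to 286 CPM in P30 Tcf21, and their part in the Cd14 levels was not tested.

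Of 7 protease genes whose products cleave Sparc or hevin, 6 were tested, and 1 rose and 2 fell between the ages. Mmp3, which encodes stromelysin-1, rose from 1.23 ± 0.432 CPM in P7 Tcf21 to 144 ± 26.2 CPM in P30 Tcf21 (6.86 ± 0.29, edgeR adjusted p = 2.1e-05). Mmp14, a membrane-bound collagenase, fell from 1031 ± 1.19 to 508 ± 77.1 CPM (-1.02 ± 0.14). Adamts4, an aggrecanase known to cleave hevin, fell from 106 ± 2.31 to 53.6 ± 5.44 CPM (-0.98 ± 0.10). Against P30 Tcf21, P7 Postn had lower Mmp3 (-7.22 ± 0.30) and higher Adamts4 (1.26 ± 0.10) and Mmp14 (0.95 ± 0.14), and 0 others of the 6 were called. These calls were kept in all 17 alternatives. Between the day 7 groups 0 of 6 were called by any of the 3 tools, with 1 at an unadjusted p under 0.05, and the most expressed, Mmp2, differed by -0.39 ± 0.18.

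Of 17 BMP pathway genes 16 were tested, and 4 rose and 2 fell between the ages, a share near the 31.8% of all genes called. Their median log2 change was 0.35. Id2, a target gene of BMP receptors, rose from 126 ± 1.93 to 255 ± 14.1 CPM (1.02 ± 0.16, edgeR adjusted p = 0.0029). The receptor gene Bmpr2 (0.83 ± 0.26) and the ligand gene Bmp4 (0.50 ± 0.15) were also called, but both calls were lost without P7 Tcf21 replicate 1 (adjusted p = 0.14 and 0.21) or replicate 2 (0.20 and 0.17). Bmp4 further lost its call without P30 Tcf21 replicate 2 (0.076) or 3 (0.088), and Bmpr2 without P7 Postn replicate 1 (0.059) or 2 (0.06) and without P30 Tcf21 replicate 1 (0.055) or 3 (0.094), by limma-voom (0.058), when scaled by library size alone (0.062) and with only these groups in the fit (0.051). In P7 Postn against P30 Tcf21, 3 were higher and 4 lower. They included the inhibitor of differentiation gene Id4 (1.22 ± 0.12), at 58.6 ± 0.651 against 25.04 ± 2.99 CPM, the ligand gene Bmp2 (-0.96 ± 0.19) and the receptor gene Bmpr1b (2.29 ± 0.64). Bmpr1b rested on 2.17 against 0.428 CPM and lost its call without either P7 Postn library (0.062 and 0.17) and without P30 Tcf21 replicate 1 (0.052) or 2 (0.089). Between the day 7 groups Id4 (0.85 ± 0.13) and the receptor gene Bmpr1a (0.51 ± 0.11) were higher in P7 Postn and the ligand gene Bmp6 (-0.77 ± 0.10) was lower, so 2 were higher and 1 lower. Without P7 Tcf21 replicate 1 or 2, adjusted p was 0.11 in both cases for Id4, 0.15 and 0.20 for Bmpr1a and 0.085 in both cases for Bmp6, and without P7 Postn replicate 1 or 2 it was 0.062 and 0.099 for Bmpr1a.

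**Figure D4:**
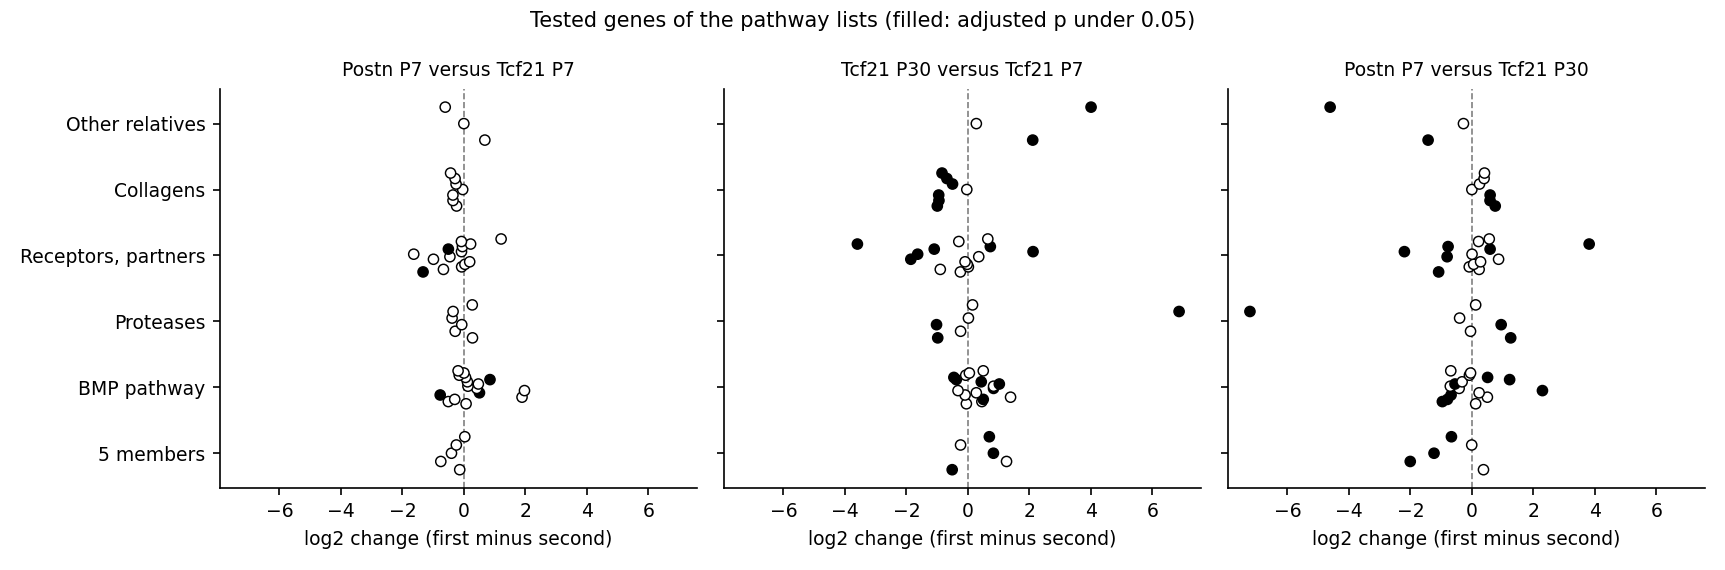
Each point is the log2 change (x axis, first group minus second) of a tested gene, in rows for the 5 lists and the 5 members (y axis), and filled points passed the adjusted p of 0.05. Mmp3 and Spock2 lie farthest from 0 in both comparisons with P30 Tcf21, and 6 of 7 collagens lie below 0 and are filled in the comparison of ages.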

How the data were processed

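RNA of sorted fluorescent heart cells was sequenced on the Illumina HiSeq platform, per the labels. The authors deposited raw counts per gene symbol, with no normalization and 1 column per library. Per the submitters' processing notes STAR and GRCm38 were used. The counting program, annotation release and strand setting are not given in the sources used here. Coordinates and exon lengths came from GENCODE M21 (GRCm38), which held 54000 of the symbols once.

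The count table was tested with edgeR 4.0.16 (R 4.3.3). The function filterByExpr left 17636 genes, libraries were scaled by TMM, and all 7 libraries were fitted together by the robust quasi-likelihood method with a mean per group. P-values of the 3 group differences were adjusted by Benjamini-Hochberg over all genes tested (threshold 0.05). Each SE was derived from the F statistic (change over root F), and intervals use the t distribution. The procedure was also run on simulated counts. These had the same spread in every group, so that run cannot show how the unequal spread of the groups here affects the calls. Alternatives used DESeq2 1.42.0, limma-voom (limma 3.58.1), other scalings, no filter, subsets of libraries and a replicate block. Those of the likeness r were added after seeing the data, and the endothelial-rich libraries were picked by marker levels in these data. The members and lists were chosen with earlier results of these data known. Genes named from a list were up to 3 called members with the largest change, or the most expressed where none was called. Genes of like pattern were the 3 with the highest r to each member, among genes with a mean of at least 10 CPM and without predicted models (log2 CPM, prior count 2).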

Additional observations from a re-analysis of the deposited data

How the results depend on the processing

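Of 15 member changes, 6 were called, and 4 of these kept their call in all 17 alternatives (Sparcl1 between the ages and Sparcl1, Smoc2 and Smoc1 in P7 Postn against P30 Tcf21). The Sparcl1 call between the ages was kept narrowly, as its highest adjusted p lay just under 0.05, with changes of 0.65 to 0.76. For Smoc1 the adjusted p reached 0.04 by edgeR with only P7 Postn and P30 Tcf21 in the fit. None of the called changes changed sign. With the P7 Tcf21 libraries summed, 123 genes in all were called between the day 7 groups and 2463 between the ages, against 2118 and 5604, and 1 member between the ages (Sparcl1). Without a filter on low counts 3442 genes and 1 member (Smoc2) were called between the day 7 groups, and without both endothelial-rich libraries 3750 genes and 1 member (Smoc1). Leaving out 1 library at a time gave 111 to 3250 genes between the day 7 groups, 2418 to 6063 between the ages and 2810 to 5072 between P7 Postn and P30 Tcf21, and 0, 1 to 4 and 3 to 4 members. The lowest counts came without P7 Tcf21 replicate 2 (111 and 2418) and without P7 Postn replicate 1 (2810), and the highest without P30 Tcf21 replicate 1. Why these counts moved was not tested. The Smoc1 difference between P7 Postn and P30 Tcf21 ranged from -2.93 to -1.47. Library size alone as the scaling moved the median of all genes between the day 7 groups from 0.002 to 0.116, and the split of higher and lower genes from 1149 and 969 to 1741 and 472 (1187 and 647 with upper-quartile factors). Between P7 Postn and P30 Tcf21 the split went from 2070 and 2206 to 2802 and 1725. No sign of a called member changed with it. With the longest transcript as the length, Sparc made up 52.6%, 54.3% and 47.2% of the 5-gene sum for P7 Postn, P7 Tcf21 and P30 Tcf21, and leaving out 1 library gave 46.0% to 46.8%, 48.1% to 48.7% and 41.5% to 41.8%. The labels do not say whether equally numbered libraries share a litter, batch or day. Their deviations from the group means correlated by 0.04 to 0.31, and with the replicate block 1556, 4553 and 3348 genes and 0, 3 and 3 members were called between the day 7 groups, between the ages and between P7 Postn and P30 Tcf21. Smoc1, at 32 to 329 counts per library, is the member whose precision depth limits most.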
